A study of Mus musculus with 12 samples.

Results

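Cytochrome P450 enzymes of families 1 to 4 were followed in liver and brain from Mettl5 knockout mice. The members are all protein-coding genes of the count table whose symbol reads Cyp, then 1, 2, 3 or 4, then a letter, and were taken by name and annotated type. This gave 81 genes out of 55487 in the table, of which 21974 are protein-coding. A further 30 genes with such a symbol are not protein-coding, most of them pseudogenes, and were left out. The members comprise 3 genes of family 1, 49 of family 2, 9 of family 3 and 20 of family 4, in 22 subfamilies.

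RNA was sequenced in 12 libraries, from both organs of 6 mice, with 3 libraries in each of the 4 groups WT liver (mice B, D and E), KO liver (mice A, C and F), WT brain and KO brain. In the KO mice exon 2 of Mettl5, the methyltransferase of an adenosine in 18S rRNA, was removed in the whole body, by crossing a conditional allele made in C57bl/6 × 129S6 embryonic stem cells and backcrossed to B6 with a CMV-cre line. The WT group follows the labels. The text of the study speaks of heterozygous and knockout mice for its RNA sequencing, while a supplementary table title speaks of wild type. The Mettl5 genotype of the controls is therefore uncertain. The study also speaks of pairs of mice, without saying which mice form a pair, and a supplementary figure legend calls a sequenced pair littermates. All 6 mice were untreated as far as the labels say, and the labels give no sex, age, litter or batch for any of them. The study as a whole used both sexes at ages of 4 weeks to 6 months.

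Cytochrome P450 enzymes are heme proteins that insert an oxygen atom into their substrate, with electrons passed on by the reductase Por. Families 1 to 3 oxidise drugs, plant compounds, pollutants and steroids, and family 4 mainly oxidises fatty acids and eicosanoids. Hepatocytes are their main site of expression, where the receptors Ahr, Nr1i3 (CAR), Nr1i2 (PXR) and Ppara induce different subfamilies. Many mouse genes of the Cyp2, Cyp3a and Cyp4a clusters also differ strongly between male and female liver, because pituitary growth hormone acts through Stat5b with a different rhythm in each sex.

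Library totals ran from 14403309 to 21623180 counts. Mettl5 itself had lower CPM (counts relative to library size) in each KO library than in each WT library of its tissue (log2 fold change -1.44, SE 0.27, edgeR adjusted p = 0.383 in liver, and log2 fold change -0.84, SE 0.27, edgeR adjusted p = 0.373 in brain), with 41 to 78 counts left in the KO libraries, so its reads, counted over all exons and not over exon 2 alone, do not show a complete loss. The gene Ssb overlaps it in the genome. Albumin (Alb) had at least 842812 counts in every liver library and at most 485 in every brain library, and the neuronal gene Snap25 had at least 14504 in every brain library and at most 21 in every liver library, so the tissue labels hold. The 2 mitochondrial rRNAs took 10.7% to 16.9% of the counts in WT liver and 7.36% to 8.66% in KO liver, but 7.63% to 17.7% in WT brain and 21.4% to 31.6% in KO brain. One WT mouse (E) and one KO mouse (F) stood apart from the other 4: their libraries had at most 20 counts over 4 Y-linked genes and at least 9446 counts of Xist, against at least 2112 and at most 19 counts in the others. In bulk tissue, fewer cells of a type and less RNA per cell cannot be told apart.

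The members lie mostly in tandem clusters, with 18 on chromosome 4 (Cyp4a, Cyp2j, Cyp4x1, Cyp4b1), 15 on chromosome 7 (Cyp2a, Cyp2b and others), 15 on chromosome 19 (Cyp2c) and 10 on chromosome 5 (mostly Cyp3a). Neighbours in a cluster can be near copies of each other, also in the DNA just before the gene. RefSeq promoters were matched by symbol for 66 of the 81 members (build GRCm38.p6, the 250 bases before the RefSeq start). The first pair shown is one in which almost identical promoters stood beside very unlike levels in mice A to D, but not in mice E and F. The promoter of Cyp2a4, a steroid 15 alpha-hydroxylase known to be higher in females, spans chr7:26306942-26307191 on the + strand, and that of Cyp2a5, the coumarin 7-hydroxylase, chr7:26835089-26835338 on the + strand. These promoters were 97.6% identical, and the coding sequences 98.5%. Capitals mark a match to TTATGNAA, the D box bound by Dbp, Tef and Hlf, read on either strand.
Cyp2a4: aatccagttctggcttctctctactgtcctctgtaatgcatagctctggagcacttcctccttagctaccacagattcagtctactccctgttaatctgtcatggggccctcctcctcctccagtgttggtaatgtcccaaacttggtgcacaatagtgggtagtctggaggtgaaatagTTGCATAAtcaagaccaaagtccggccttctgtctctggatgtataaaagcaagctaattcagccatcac
Cyp2a5: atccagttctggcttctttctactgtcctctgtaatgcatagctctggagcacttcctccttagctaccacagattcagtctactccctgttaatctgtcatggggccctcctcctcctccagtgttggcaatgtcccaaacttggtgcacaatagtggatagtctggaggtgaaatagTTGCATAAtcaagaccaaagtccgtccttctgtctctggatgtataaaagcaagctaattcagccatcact

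The second set is the Cyp2b cluster. It holds Cyp2b10, the usual reporter of the receptor Nr1i3, with its promoter at chr7:25897408-25897657 on the + strand, and Cyp2b9 and Cyp2b13, steroid hydroxylases known to be higher in females, with the Cyp2b9 promoter at chr7:26173159-26173408 on the + strand and the Cyp2b13 promoter at chr7:26061245-26061494 on the + strand. The Cyp2b9 and Cyp2b13 promoters were 99.2% identical to each other, and each was 70.0% identical to that of Cyp2b10. Cyp2b10 had a D box match, marked in capitals together with 2 matches to GCGTG, the core bound by Ahr and Arnt, on either strand. Cyp2b9 and Cyp2b13 had neither.
Cyp2b10: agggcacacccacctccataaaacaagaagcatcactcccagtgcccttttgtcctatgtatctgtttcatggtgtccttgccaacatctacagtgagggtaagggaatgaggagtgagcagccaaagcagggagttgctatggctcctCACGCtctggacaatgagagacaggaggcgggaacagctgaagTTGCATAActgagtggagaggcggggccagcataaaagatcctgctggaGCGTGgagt
Cyp2b9: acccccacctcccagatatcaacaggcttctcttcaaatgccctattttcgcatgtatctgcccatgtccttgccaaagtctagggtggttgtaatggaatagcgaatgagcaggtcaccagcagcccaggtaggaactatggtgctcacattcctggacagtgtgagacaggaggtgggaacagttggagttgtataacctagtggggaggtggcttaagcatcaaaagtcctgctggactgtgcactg
Cyp2b13: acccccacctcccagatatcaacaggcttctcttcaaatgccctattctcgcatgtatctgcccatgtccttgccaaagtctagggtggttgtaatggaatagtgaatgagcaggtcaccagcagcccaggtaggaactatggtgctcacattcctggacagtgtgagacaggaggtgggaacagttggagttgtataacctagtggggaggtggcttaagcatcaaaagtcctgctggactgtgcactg

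The third set is from the Cyp3a cluster. The promoter of Cyp3a11, the main drug-metabolising Cyp3a enzyme of mouse liver and the usual reporter of Nr1i2, spans chr5:145879855-145880104 on the minus strand, and those of the female-higher genes Cyp3a41a and Cyp3a44 span chr5:145720137-145720386 on the minus strand and chr5:145805875-145806124 on the minus strand. The last 2 promoters were 94.4% identical, and each was 71.7% identical to Cyp3a11. None of them held the D box, GCGTG, the STAT motif TTCNNNGAA or the direct repeat of AGGTCA with a single base between the copies, which Ppara binds with its partner Rxra.
Cyp3a11: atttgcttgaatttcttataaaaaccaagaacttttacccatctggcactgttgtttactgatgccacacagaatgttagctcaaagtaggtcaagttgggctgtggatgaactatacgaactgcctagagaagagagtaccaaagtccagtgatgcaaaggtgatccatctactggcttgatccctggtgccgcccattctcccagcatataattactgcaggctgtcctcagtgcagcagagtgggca
Cyp3a41a: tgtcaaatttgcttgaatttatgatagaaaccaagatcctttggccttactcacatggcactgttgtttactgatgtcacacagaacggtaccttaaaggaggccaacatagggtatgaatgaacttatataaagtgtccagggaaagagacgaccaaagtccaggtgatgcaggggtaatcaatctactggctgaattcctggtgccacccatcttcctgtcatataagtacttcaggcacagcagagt
Cyp3a44: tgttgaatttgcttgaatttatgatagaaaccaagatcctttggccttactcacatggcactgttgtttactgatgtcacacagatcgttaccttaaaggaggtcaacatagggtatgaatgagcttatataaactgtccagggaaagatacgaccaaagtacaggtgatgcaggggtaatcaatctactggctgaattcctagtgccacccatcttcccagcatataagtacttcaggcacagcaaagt

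Over all 66 promoters, searched on both strands, the D box was found in 5 members (Cyp2a4, Cyp2a5, Cyp2b10, Cyp2b19 and Cyp2b23) and in 3.23% of the 27025 promoters of all genes. The GCGTG core was in 12 members, Cyp1a1 among them, and in 28.2% of all promoters. TTCNNNGAA was in 4 members and in 7.18% of all promoters, the direct repeat in 0 members and in 0.037%, and TATAAA in 26 members and in 13.0%. A match is a description of these letters, and its absence from this window says nothing about the factor.

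The liver libraries were first read for the level of each member. CPM were taken on library sizes scaled within a tissue, and RPKM are CPM divided by the exon length in kilobases, so that genes can be set beside each other. Cyp2e1, which oxidises ethanol and paracetamol around the central vein, was at 985 ± 292 RPKM in WT liver (SD, n = 3) and led the order, with all 3 libraries above those of Cyp3a11 (390.2 ± 205 RPKM). Behind them came Cyp2f2, a periportal naphthalene oxidase, Cyp2j5, an arachidonate epoxygenase, Cyp2c29, and Cyp1a2, which oxidises caffeine and arylamines, at 289, 277, 262 and 258 RPKM. Cyp2d10, Cyp2d26, Cyp3a25, Cyp2a5, Cyp2c50 and Cyp2c70 followed, from 191 down to 146 RPKM. From Cyp3a11 on, the ranges of neighbours in this order overlapped. In KO liver 7 of these 12 genes had a mean above that in WT: Cyp2e1 (1316 RPKM), Cyp1a2 (369.8), Cyp2f2 (319), Cyp2c29 (274), Cyp2d10 (231), Cyp2c50 (172) and Cyp2c70 (156). The other 5 had a mean below it: Cyp3a11 (351 RPKM), Cyp2j5 (256), Cyp2d26 (173), Cyp3a25 (154) and Cyp2a5 (108). None of the 12 was called between the genotypes. These 12 genes took 76.3%, 76.0% and 55.2% of all member counts in WT liver B, D and E and 76.7%, 75.1% and 65.9% in KO liver A, C and F, so the share was lowest in mice E and F.

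In brain the members were rare. Cyp2j9, which turns arachidonate into epoxides and hydroxy acids, led at 8.91 ± 1.76 RPKM in WT brain (SD, n = 3), and its lowest library lay above the highest of the next gene, Cyp2j6 (2.96 ± 0.136 RPKM). Cyp2d22, Cyp2u1, a fatty acid hydroxylase, Cyp4f14, Cyp4v3, Cyp4f15 and Cyp4x1 lay between 2.48 and 1.71 RPKM, and neighbours among them overlapped. There were 24 members without a count in any brain library, 10 without one in liver, and 8 without one in either tissue (Cyp2b19, Cyp2b23, Cyp2c66, Cyp2j11, Cyp2w1, Cyp4a30b, Cyp4f37 and Cyp4f40).

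**Figure D1:**
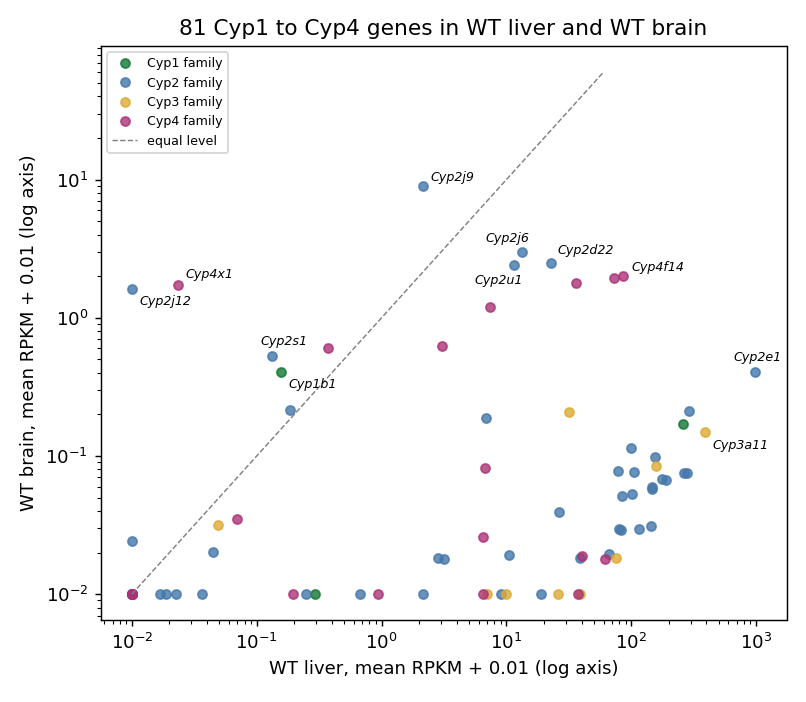
Mean level of each of the 81 members in WT liver (horizontal) and WT brain (vertical), each over 3 libraries, in RPKM + 0.01 on log axes, coloured by family. Cyp2e1 lies farthest right at 985 RPKM in liver, and Cyp2j9 is highest in brain at 8.91 RPKM, above the dashed line of equal level.

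Levels in the 2 tissues were compared in the WT mice, in a model over all 12 libraries that tested 53 members, with a call at an edgeR adjusted p under 0.1. Of the 53 members 38 passed the filter on low counts of the liver libraries alone and 3 that of the brain libraries alone, so these 41 were tested because they are high in one tissue, and their calls are no support for a difference of the members as a group. The other 12 passed in both tissues. Among those 12, 10 were called, against 78.4% of the 18944 genes tested, with 9 higher in liver (34.8% of all genes) and Cyp2j9 higher in brain (43.6% of all genes). Over all 53 the count was 50, and 51 with mouse as a replicate block, a setting that called 76.6% of all genes. Most values for liver genes rest on very few brain reads: Cyp2c29 had 42178 counts summed over the WT liver libraries and 11 over the WT brain libraries, and Cyp2j5 had 34442 and 8. Cyp4a14 and Cyp2c38 had 0 counts in WT brain, and with 3 counts per library as the floor they were at least 950.4-fold and 524-fold higher in liver. Without WT mouse E these limits fell to 622-fold for Cyp4a14 and 315-fold for Cyp2c38. The smallest p of all the 53 belonged to Cyp2j5 (log2 difference 12.71, SE 0.29), followed by Cyp2c50 (12.13), Cyp3a25 (11.58), Cyp2c23 (11.50) and Cyp1a2 (11.28).

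The genes that lead in brain were for the most part still higher in liver. The ratio of mean CPM, WT liver over WT brain, was 7.11 for Cyp2j6, 7.72 for Cyp2u1, 14.5 for Cyp2d22 and 60.2 for Cyp4v3, each called higher in liver. Cyp4f15 had a log2 difference of 5.005 (SE 0.16). For comparison Cyp2e1, with 47 counts over the WT brain libraries, had a ratio of 3983.

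The 4 members called higher in brain were Cyp2j9 and the 3 tested through brain alone, Cyp2j12, Cyp4x1 and Cyp2s1. Cyp2j12 is listed at 57, 39 and 75 counts in WT mice B, D and E and 30, 53 and 32 counts in KO mice A, C and F of brain, and at 0 in all 6 liver libraries, which makes it at least 11.4-fold higher in WT brain. For Cyp4x1, an enzyme known from brain that oxidises anandamide, WT brain held 394 counts in all and WT liver 3. Cyp2j9 differed by -1.38 (SE 0.28, edgeR adjusted p = 4.03e-04) and Cyp2s1 by -1.42 (SE 0.60, edgeR adjusted p = 0.0442), a call that was lost without WT replicate D (edgeR adjusted p = 0.237), within a range of 0.0028 to 0.237 over the alternatives. The Cyp2s1 ratio of mean CPM, WT liver over WT brain, was 0.371. It was 0.161 without WT mouse E and 0.557 without WT mouse D. The members not called were Cyp2a22, Cyp1b1 and Cyp4f16, with edgeR adjusted p of 0.103, 0.171 and 0.927.

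Whether loss of Mettl5 was accompanied by a change of these enzymes was asked first in liver, with 6 libraries. Of the 81 members 50 passed the filter on low counts and were tested, and 31 were not: 10 had no count in liver, 8 had at most 3 counts in every library, and 13 had more (Cyp2a4, Cyp2b13, Cyp2d11, Cyp2d12, Cyp2g1, Cyp2j8, Cyp2s1, Cyp3a16, Cyp3a41a, Cyp3a41b, Cyp3a44, Cyp4f18 and Cyp4f39). Several of the latter were abundant, but in a single library of each genotype, which the filter does not accept. With edgeR 0 of the 50 members were called, as were 0% of the 14075 genes tested, and 4 members had an unadjusted p under 0.05, which is 8% against 7.33% of all genes. Without WT replicate B this last count was 1 of 56 (1.79%, against 4.85% of all genes). Without KO replicate F it was 9 of 50 (18%, against 8.10%), and no other single mouse took it outside this range. DESeq2 called 1 of 49 members, against 1.1% of 15516 genes. KO and WT libraries did not overlap in 4 members, all higher in KO, against 12.9% of all genes in either direction. Of the 50 values 27 were above 0 and 23 below, with a median log2 fold change of 0.05 over the members and -0.0024 over all genes tested. The p-values measure the spread between these mice only.

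The 4 genes that did not overlap were Cyp4a32, Cyp1a2, Cyp2c54 and Cyp4f15. Cyp4a32, a fatty acid omega-hydroxylase gene (ENSMUSG00000063929.6, mm10 chr4:115600969-115621602, + strand), was at 10.6, 14.1 and 5.05 CPM in WT mice B, D and E and 26.7, 25.3 and 22.5 CPM in KO mice A, C and F. All KO libraries lay above all WT libraries, and the WT value of mouse E was the lowest (log2 fold change 1.33, SE 0.33, edgeR adjusted p = 0.428). It was called by DESeq2 (adjusted p = 0.00786), without the filter on low counts (edgeR adjusted p = 1.83e-09), with a covariate for the libraries with Y-linked counts (0.0712) and without mice E and F (0.0815). The alternatives spanned adjusted p of 1.83e-09 to 0.985 and log2 fold changes of 1.009 to 1.66. The study also lists Cyp4a32 from these same libraries, which is no independent evidence of its direction.

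Cyp4a32 shares sequence with its neighbours on chromosome 4. Its coding sequence was 97.2% identical to that of Cyp4a10 (ENSMUSG00000066072.13, mm10 chr4:115518264-115533649, + strand), and 18.1% of the 100-base windows of its transcripts occur in another gene, so reads between the pair are uncertain. The values of Cyp4a10 lay lower in KO, at 111, 91.4 and 187 CPM in WT mice B, D and E and 34.5, 54.5 and 108 CPM in KO mice A, C and F (log2 fold change -0.98, SE 0.49, edgeR adjusted p = 0.758). The KO value of mouse F overlapped the WT values. Cyp4a32 made up 8.75%, 13.4% and 2.63% of the sum of both genes in WT mice B, D and E and 43.6%, 31.7% and 17.2% in KO mice A, C and F, so its part was higher in every KO library.

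Cyp1a2 (ENSMUSG00000032310.4, mm10 chr9:57676937-57683703, minus strand) was at 485, 409.8 and 662 CPM in WT mice B, D and E and 789, 779 and 665 CPM in KO mice A, C and F. The groups were separated narrowly, by WT mouse E at the top of one and KO mouse F at the bottom of the other (log2 fold change 0.52, SE 0.19, edgeR adjusted p = 0.583). It was called without the filter on low counts (edgeR adjusted p = 0.0602), and the alternatives gave 0.0602 to 0.985. Cyp2c54, an enzyme of the Cyp2c cluster that metabolises arachidonate, was at 99.6, 133 and 121 CPM in WT mice B, D and E and 141, 165 and 162 CPM in KO mice A, C and F (log2 fold change 0.40, SE 0.15, edgeR adjusted p = 0.578). Cyp4f15, which omega-hydroxylates leukotrienes, was at 81.4, 74.3 and 90.0 CPM in WT mice B, D and E and 92.1, 99.6 and 118 CPM in KO mice A, C and F (log2 fold change 0.33, SE 0.14, edgeR adjusted p = 0.672). In all 3 genes the smallest gap between the groups was small beside the spread within them. Cyp4f17 and Cyp4f13 came next in order of p, with log2 fold changes of 0.54 and 0.26 and overlapping groups.

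**Figure D2:**
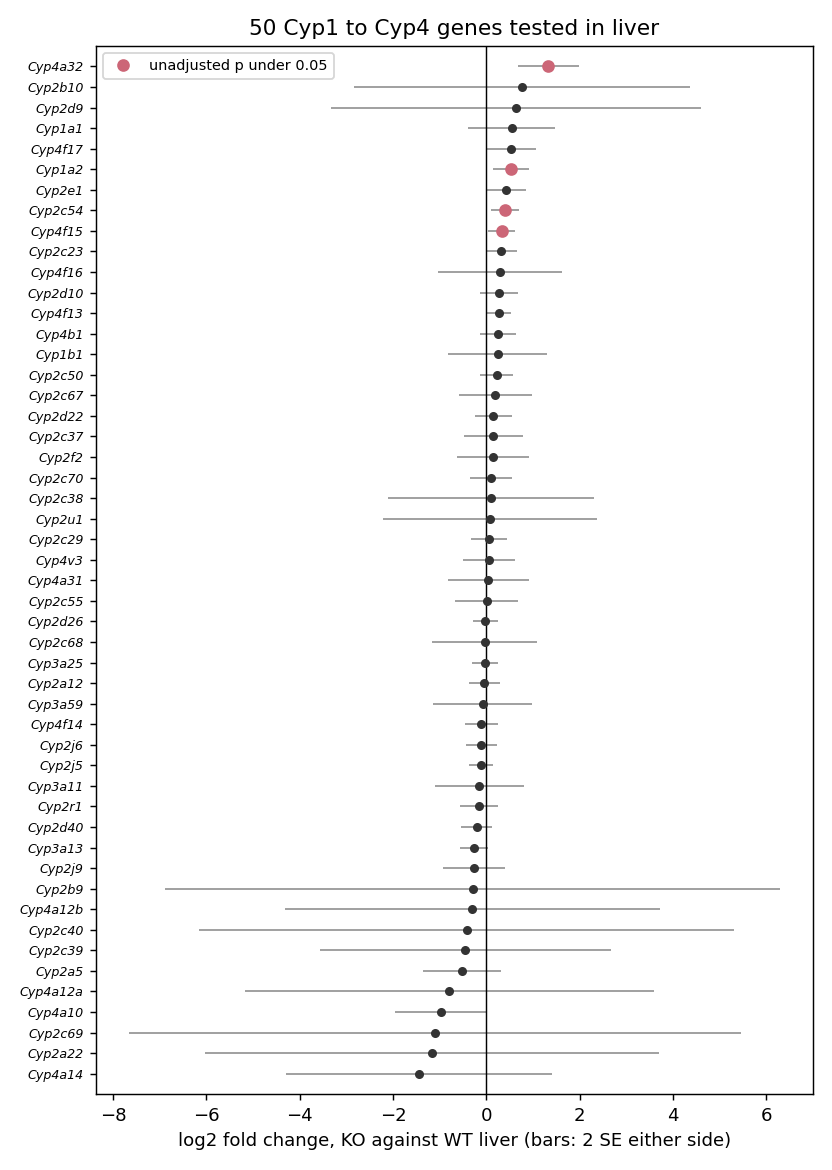
Log2 fold change, KO against WT liver, of the 50 members tested (points), with bars of 2 SE on either side; the 4 members with an unadjusted p under 0.05 are in red. Cyp4a32 has the highest value (1.33) and Cyp4a14 the lowest (-1.45), and the widest bars belong to genes with very different levels in mice E and F.

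None of the other abundant enzymes was called between the genotypes. Cyp2e1 was at 1819.9, 2852 and 1708 CPM in WT mice B, D and E and 2868, 3181 and 2469 CPM in KO mice A, C and F, and the groups overlapped (log2 fold change 0.42, SE 0.22, edgeR adjusted p = 0.747). Cyp3a11 was at 3060.0, 1931 and 971 CPM in WT mice B, D and E and 2308, 2047 and 1016 CPM in KO mice A, C and F. Mice E and F were the lowest of their groups, and the value for genotype was -0.15 (SE 0.48, edgeR adjusted p = 0.977). For Cyp2d26, Cyp3a25 and Cyp2j5, with the smallest SE of the 12 most abundant genes, the intervals of 2 SE around the log2 fold change ran from -0.29 to 0.24, from -0.32 to 0.24 and from -0.38 to 0.15. Pericentral hepatocyte markers were measured beside Cyp1a2 and Cyp2e1, which are pericentral enzymes: 5 of 6 were tested, 0 were called, 4 of the 5 values were below 0, 1 of them with an unadjusted p under 0.05 (Slc1a2, log2 fold change -0.57), and their summed level was 1053 to 1733 CPM in WT and 1061 to 1445 CPM in KO liver. Among the other cells of the liver, 5 of 5 Kupffer cell markers lay below 0, at a median of -0.51 on the log2 scale and 0 with an unadjusted p under 0.05, and their summed level was 173 to 296 CPM in WT and 124 to 247 CPM in KO. Stellate cell and liver endothelium markers each had 4 of 5 values above 0, 1 of them with an unadjusted p under 0.05, with medians of 0.32 and 0.23. Of 8 hepatocyte markers 5 values were above 0 and 3 below, with a median of 0.15. Tat (-0.53, lower in each KO library) and Hamp (0.76, overlapping groups) had an unadjusted p under 0.05. Periportal markers, the member Cyp2f2 among them, had 2 values above 0 and 4 below, with a median of -0.055. Of the cholangiocyte markers 4 were tested, with 1 value above 0, 3 below and a median of -0.45. These 2 lists had 0 values with an unadjusted p under 0.05. Of all these lists 0 genes were called. The part of these cells in the members' values was not tested.

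The genes that xenobiotic receptors induce were read one receptor at a time. Of the 11 inducible reporters all were tested, 0 were called, 6 values were above 0 and 5 below, and the median log2 fold change was 0.06. Among the Ahr targets, Cyp1a1, which oxidises polycyclic aromatic hydrocarbons, had only 10, 15 and 16 counts in WT mice B, D and E and 25, 23 and 13 counts in KO mice A, C and F, with overlapping groups (log2 fold change 0.54, SE 0.47, edgeR adjusted p = 0.873). The third Ahr target, Cyp1b1, had 9 to 27 counts per liver library and a log2 fold change of 0.25 (SE 0.53).

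Among the reporters of Nr1i3 and Nr1i2, Cyp2c29 was at 855, 899 and 655 CPM in WT mice B, D and E and 830.5, 1013 and 669.9 CPM in KO mice A, C and F (log2 fold change 0.06, SE 0.19, edgeR adjusted p = 0.976). Cyp2a5 was at 224, 265 and 479 CPM in WT mice B, D and E and 142, 190.5 and 341 CPM in KO mice A, C and F (log2 fold change -0.52, SE 0.41, edgeR adjusted p = 0.868). Mice E and F were the lowest of all in Cyp2c29 and the highest of their groups in Cyp2a5. Cyp2b10, whose promoter is printed above, was at 2.78, 0.896 and 16.1 CPM in WT mice B, D and E and 1.33, 1.06 and 31.0 CPM in KO mice A, C and F; its highest WT and KO libraries were those of mice E and F.

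The Ppara targets of family 4 varied widely between mice. Cyp4a14 was at 110.0, 23.2 and 161 CPM in WT mice B, D and E and 5.30, 9.96 and 92.5 CPM in KO mice A, C and F; KO mouse F lay inside the WT range, and the other KO mice lay below it (log2 fold change -1.45, SE 1.43, edgeR adjusted p = 0.897). Without mice E and F its log2 fold change was -3.11, but its unadjusted p was not under 0.05. In that fit Cyp4a10 had -1.17 (SE 0.22, edgeR adjusted p = 0.209). With the covariate for Y-linked counts, Cyp4a10 was called (-1.05, edgeR adjusted p = 0.0852), with 0.0852 to 0.985 over the alternatives.

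**Figure D3:**
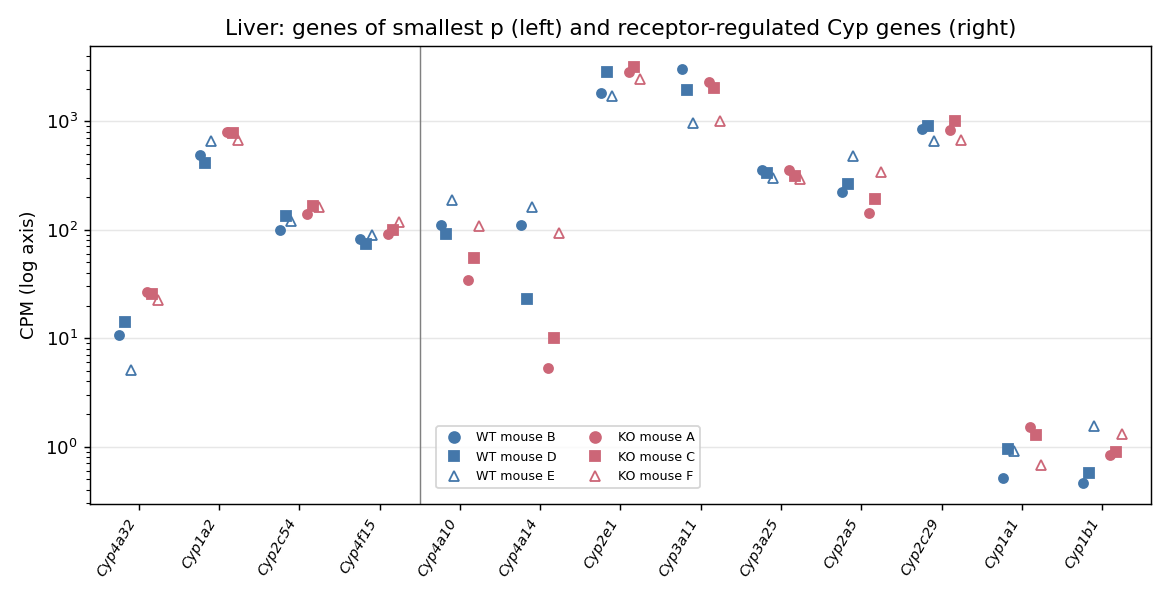
CPM (log axis) in each liver library, filled symbols for mice A to D and open triangles for mice E and F, for the 4 members with the smallest p (left of the line) and 9 receptor-regulated members (right). Cyp4a32 lies at 22.5 CPM or more in KO and at 14.1 CPM or less in WT, whereas Cyp4a10 and Cyp4a14 overlap between the genotypes.

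A second difference between libraries ran across both genotypes. Of 63 members with more than 3 counts in some liver library, 23 were higher in both mice E and F than in the other 4 mice and 14 were lower in both, 58.7% together, against 26.6% of 19651 genes. A gap of more than 10-fold was seen in 12 of the 63 members (19.0%), 9 higher and 3 lower, and in 0.880% of all genes. These mice were set apart by their Y-linked and Xist counts and not by any group of the study, so these are descriptions without a test.

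The 3 listed genes known to be higher in male liver were all low in mice E and F. This list and that of female-higher genes were chosen with earlier results of these data known, so such agreement is no independent support. Cyp2d9, a steroid 16 alpha-hydroxylase, was at 381, 461 and 4.77 CPM in WT mice B, D and E and 634, 666 and 13.6 CPM in KO mice A, C and F. Cyp4a12a, which makes the eicosanoid 20-HETE, was at 98.6, 195 and 1.59 CPM in WT mice B, D and E and 61.5, 109 and 0.156 CPM in KO mice A, C and F, and its near copy Cyp4a12b was at 14.4, 31.9 and 0 CPM in WT mice B, D and E and 19.2, 18.4 and 0 CPM in KO mice A, C and F. The remaining 4 mice overlapped between the genotypes in Cyp4a12a and Cyp4a12b, while in Cyp2d9 the KO mice A and C were above the WT mice B and D. With all mice, the log2 fold change of Cyp2d9 for genotype was 0.63 with an SE of 1.98, and with the covariate for Y-linked counts it was 0.86 (edgeR adjusted p = 0.104, with 0.104 to 1 over the alternatives). Cyp2u1 was also low in mice E and F (91.5, 78.2 and 11.4 CPM in WT mice B, D and E and 76.0, 105 and 10.95 CPM in KO mice A, C and F), which is not a gene of that list and was named for its rank in brain.

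The 10 listed genes known to be higher in female liver were all higher in mice E and F than in the other 4, although Cyp3a41b had only 2 counts in mouse F. This list too was chosen with earlier results known. Outside it, Cyp2a22 and Cyp2g1 were also higher in both mice, the lower of E and F being 20.4 and 14.6 times the highest of the other 4. Cyp2b9 was at 3.19, 5.06 and 561 CPM in WT mice B, D and E and 0.843, 0 and 462 CPM in KO mice A, C and F, and Cyp2b13, with its nearly identical promoter, was at 0.0515, 0.128 and 148 CPM in WT mice B, D and E and 0.361, 0 and 168 CPM in KO mice A, C and F. For Cyp2a4 the levels were 0.618, 0.192 and 429.7 CPM in WT mice B, D and E and 0.482, 0.224 and 213 CPM in KO mice A, C and F. Beside it Cyp2a5, with the promoter that differs from that of Cyp2a4 at few positions, had at least 142 CPM in all 6 libraries. Cyp2c69 was at 1.18, 0.192 and 410.0 CPM in WT mice B, D and E and 0.602, 0.672 and 189 CPM in KO mice A, C and F, and Cyp2c40 at 2.99, 0.640 and 235 CPM in WT mice B, D and E and 1.63, 0.951 and 175 CPM in KO mice A, C and F; these are arachidonate and steroid metabolising enzymes of the Cyp2c cluster. All 5 were at 5.06 CPM or less in mice A to D and at 148 CPM or more in mice E and F. The log2 fold changes of Cyp2b9, Cyp2c40 and Cyp2c69 for genotype, -0.30, -0.42 and -1.11, took either sign depending on the mouse left out.

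In 4 Cyp3a genes of that list mice E and F also differed from each other. Cyp3a41a had 0, 0 and 8236 counts in WT mice B, D and E and 1, 0 and 345 counts in KO mice A, C and F, and Cyp3a41b had 0, 0 and 765 counts in WT mice B, D and E and 1, 0 and 2 counts in KO mice A, C and F. Cyp3a16, an enzyme of fetal and female liver, had 3, 0 and 2355 counts in WT mice B, D and E and 4, 1 and 29 counts in KO mice A, C and F, and Cyp3a44 had 4, 4 and 4051 counts in WT mice B, D and E and 3, 2 and 1341 counts in KO mice A, C and F. KO mouse F had fewer counts than WT mouse E in each of these 4 genes. Levels of Cyp3a11, Cyp3a13, Cyp3a25 and Cyp3a59 were close in these mice, with Cyp3a25 at 299 CPM in mouse E and 296 CPM in mouse F and Cyp3a13 at 85.8 and 89.1 CPM. One mouse of each genotype carried the 4 genes that differed, so genotype and individual cannot be told apart. Outside the members, A1bg, 1 of 8 other listed genes known to be higher in females, was at 401 CPM in mouse E and 16.1 CPM in mouse F. The sum of these 8 genes reached 817 CPM in WT and 165 CPM in KO liver. Of the listed female-higher members, Cyp2b13 (148 and 168 CPM in mice E and F) and Cyp2b10 (16.1 and 31.0 CPM) were higher in mouse F. A list of 6 other male-higher genes summed to 147 to 3517 CPM in WT and 231 to 3333 CPM in KO liver.

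**Figure D4:**
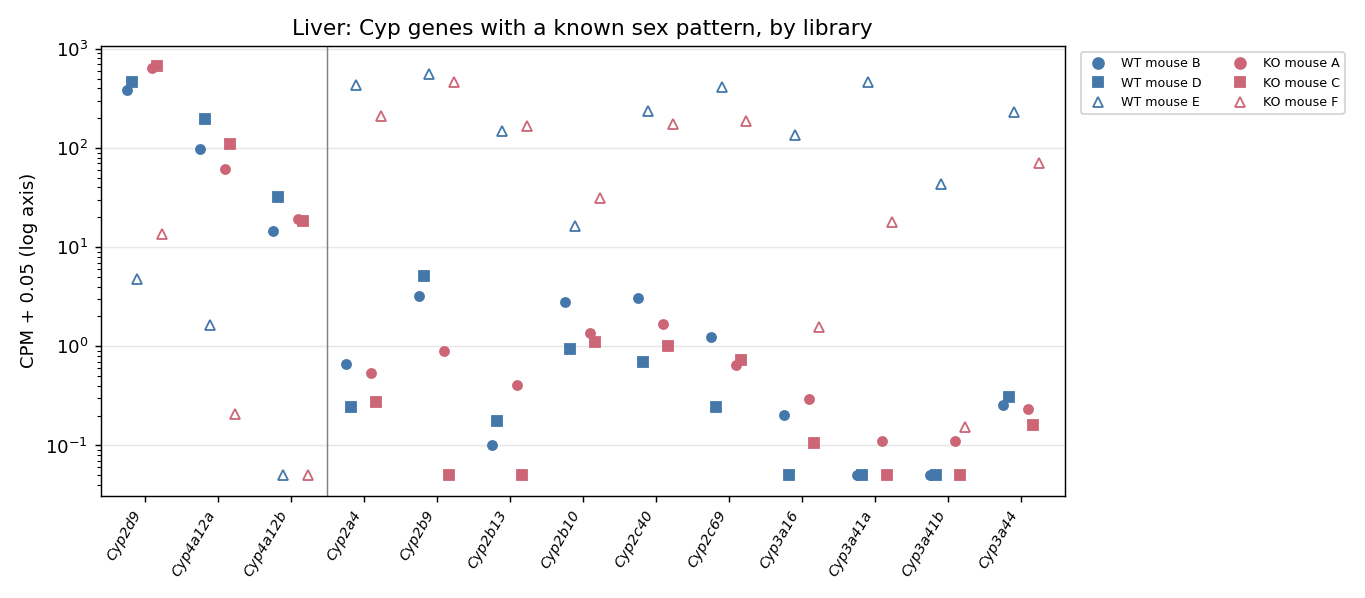
CPM + 0.05 (log axis) in each liver library for 3 members known to be higher in male liver (left of the line) and 10 known to be higher in female liver (right); open triangles are WT mouse E and KO mouse F. The triangles lie below the filled symbols in the first 3 genes, with Cyp2d9 at 4.77 and 13.6 CPM, and above them in the other 10.

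Setting these mice apart changed how many members stood out between the genotypes. With mice E and F left out, 16 of 50 members (32%) had an unadjusted p under 0.05, 9 above 0 and 7 below, against 9.20% of all genes, and 1 was called, against 0.208% of 13974 genes. With the covariate, 11 of 50 members (22%) did so, 8 above 0 and 3 below, against 12.3% of all genes, and 2 were called, Cyp4a32 and Cyp4a10, against 0.583% of 14075 genes. Without mice E and F the log2 fold changes were 0.82 for Cyp1a2, 0.63 for Cyp2d9, 0.73 for Cyp4f17 and 0.53 for Cyp2c23, and -0.90 for Cyp2c38 and -0.55 for Cyp2a5. That comparison rests on 2 mice of each genotype. Some members are near copies of each other with shared sequence, so the 50 are not independent readings. More of the members than of all genes stood apart in mice E and F in liver (58.7% against 26.6%). The part of this in the counts above was not tested.

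Reads that fit more than 1 of the closest copies may have been lost. Cyp3a41a and Cyp3a41b were 99.9% identical in coding sequence and shared 90.8% of the 100-base windows of Cyp3a41a with other genes, so their separate values are uncertain. Cyp4a12a and Cyp4a12b were 98.5% identical and shared 35.8% of windows, and for Cyp2c69, close to Cyp2c67 and Cyp2c40, the shared part was 35.4%. In Cyp2a4 it was 11.2%, with Cyp2a5 as the partner. Cyp2b9 and Cyp2b13 were 92.7% identical, and 1.18% of the Cyp2b9 windows and 9.29% of the Cyp2b13 windows occur in another gene, for Cyp2b13 mostly in Gm45225.

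The partners and regulators of these enzymes were then read from lists. Of 20 receptors and regulators 19 were tested in liver and 0 were called; Stat5b (log2 fold change 0.43, SE 0.14, edgeR adjusted p = 0.497) and Foxa2 (log2 fold change 0.41) lay higher and Tiparp, an Ahr target that dampens it, lower (-0.66) in each KO library, all with an unadjusted p under 0.05. Of 6 electron transfer partners 0 were called, and Pgrmc2, a heme-binding partner, had the smallest p (log2 fold change -0.55, SE 0.20, edgeR adjusted p = 0.583). Heme synthesis and breakdown counted 12 genes, with 0 called, 5 values above 0 and 7 below, between -0.28 and 0.20. Of the 6 PAR bZIP factors and their clock partners 0 were called and 5 values were below 0; Hlf had the smallest p (log2 fold change -0.46, SE 0.13, edgeR adjusted p = 0.465), and Dbp had -2.34 (SE 0.81) with 28, 42 and 19 counts in KO mice A, C and F and 29, 195 and 204 in WT mice B, D and E. Collection times are not given, and their part was not tested. Of 10 Ppara targets 0 were called, 6 values were above 0 and 4 below, with a median of 0.03; Vnn1, the closest of them by p, had a log2 fold change of -1.14.

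In brain the same question was asked of 15 members that passed the filter, while 66 were not tested, 24 without a count, 26 with at most 3 counts in every library and 16 with somewhat more. With edgeR 0 of the 15 were called, against 0.064% of 17188 genes (11 genes), and 0 had an unadjusted p under 0.05, against 11% of all genes. DESeq2 called 0 of 16 members, against 1.58% of 16987 genes. One member did not overlap between KO and WT libraries, 6.67% against 16.3% of all genes. Of the 15 values 3 were above 0 and 12 below, with a median of -0.14, against -0.0016 over all genes tested. Without WT replicate D 8 of 15 were above 0, with a median of 0.0057. Without mice E and F 8 of 17 were above 0, with a median of -0.014. With any other single mouse left out the median stayed between -0.128 and -0.090.

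Cyp2d22, an enzyme of dopamine and drug metabolism, had the smallest p in brain and was at 5.99, 15.6 and 7.49 CPM in WT mice B, D and E and 3.09, 8.42 and 4.42 CPM in KO mice A, C and F. The groups overlapped, and WT mouse D was far above the other WT mice (log2 fold change -0.87, SE 0.45, edgeR adjusted p = 0.495). It was called without the filter on low counts (edgeR adjusted p = 0.0277), a setting that called 3.15% of 31780 genes, and the alternatives ranged from 0.0277 to 0.990. Cyp4v3, a fatty acid omega-hydroxylase, was at 7.41, 7.43 and 7.08 CPM in WT mice B, D and E and 6.58, 4.96 and 5.27 CPM in KO mice A, C and F, the one of the 15 tested members whose KO libraries all lay below the WT libraries (log2 fold change -0.38, SE 0.20, edgeR adjusted p = 0.5). Cyp2u1 was at 11.5, 14.3 and 11.6 CPM in WT mice B, D and E and 7.64, 11.6 and 10.3 CPM in KO mice A, C and F (log2 fold change -0.34, SE 0.20, edgeR adjusted p = 0.537), with KO mouse C inside the WT range. Cyp2j6, Cyp2j9 and Cyp4x1 followed by p, with log2 fold changes of 0.22, -0.14 and 0.19.

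For the remaining members the intervals were wide. For Cyp2j9, the most abundant, the interval of 2 SE ran from -0.47 to 0.20, and for Cyp4f15, the tightest of the Cyp4f genes at 3.87, 4.26 and 4.02 CPM in WT mice B, D and E and 4.23, 3.81 and 3.89 CPM in KO mice A, C and F, from -0.48 to 0.42. Cyp2j12, which no liver library showed, had a log2 fold change of -0.17 (SE 0.36) in brain. Choroid plexus markers were lower in KO brain in 7 of 7 genes, 6 of them with an unadjusted p under 0.05 and 0 called, and their summed level was 229.9 to 394 CPM in WT and 115 to 184 CPM in KO brain. Hepatocyte markers summed to 212 to 378 CPM in WT and 112 to 174 CPM in KO brain, but this was mostly Ttr, which the choroid plexus list also holds, and the other 7 overlapped at 15.5 to 34.0 CPM in WT and 13.1 to 17.1 CPM in KO brain. Of 5 astrocyte markers 5 lay below 0 in KO brain, 1 with an unadjusted p under 0.05, their log2 fold changes had a median of -0.30, and they summed to 1029 to 1338 CPM in WT and 887 to 1049 CPM in KO. Of 5 neuronal markers 4 lay below 0, 2 of them with an unadjusted p under 0.05, with a median of -0.17 and summed levels of 2159 to 2622 CPM in WT and 2211 to 2324 CPM in KO. No gene of these lists was called, and the summed levels of both overlapped between the genotypes. The markers of oligodendrocytes, microglia, ependyma, brain endothelium, pericytes with smooth muscle, and meninges had values on both sides of 0, and 0 were called. Of the olfactory mucosa genes, Cyp2g1, Obp1a, Obp2a and Bpifb3 were at 0 in every brain library. Of 5 olfactory axon genes 4 were tested and 2 were called, Omp (log2 fold change 3.70) and S100a5 (6.21), both higher in KO; Stoml3 had 1.84 and Gng13 -0.78, and the summed level of the 5 genes overlapped, at 23.0 to 35.9 CPM in WT and 29.0 to 39.3 CPM in KO brain. How far these cells and structures bear on the members' values was not tested. The list of receptors gave 0 called genes of 11 tested in brain, that of electron transfer 0 of 6, that of heme 0 of 12, that of PAR bZIP factors 0 of 6 and that of Ppara targets 0 of 6.

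**Figure D5:**
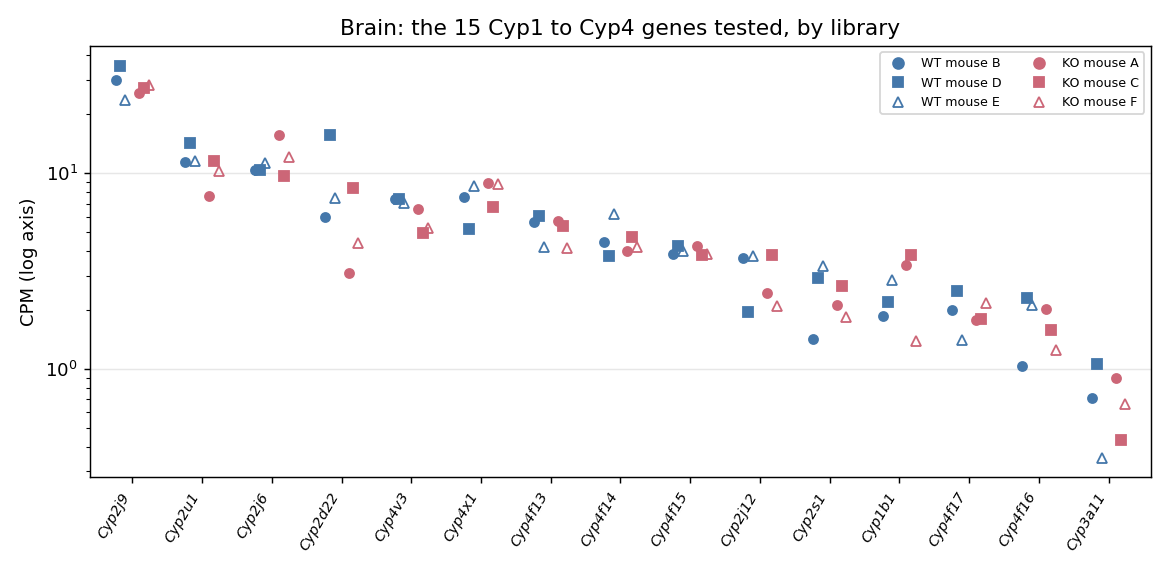
CPM (log axis) in each brain library for the 15 members tested, in order of the WT mean; open triangles are WT mouse E and KO mouse F. Cyp2j9 leads at 23.8 to 35.5 CPM, and Cyp4v3 is the one gene whose KO symbols all lie below its WT symbols.

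Whether the effect of genotype differed between the tissues was tested over all 12 libraries as a difference, the genotype effect in liver less that in brain. With edgeR 0 of 53 members were called, as were 0% of 18944 genes, and 4 members had an unadjusted p under 0.05 (7.55%, against 10.6% of all genes). For the 41 members tested through one tissue alone, the other tissue held few reads, and the SE reached 21541 on the log2 scale (Cyp2a22), so that a missing call says nothing about them. Of the 12 that passed in both tissues 0 had an unadjusted p under 0.05, and Cyp2d22 came closest with a difference of 1.05 (SE 0.53). DESeq2 called 0 members, against 2.08% of 17699 genes, and so did the fit with mouse as a replicate block, which pairs the tissues of each animal, against 0.359% of 18944 genes. The members with the smallest p, all tested through liver alone, were Cyp1a2 (difference 1.66, SE 0.55), Cyp3a25 (2.35), Cyp2a12 (3.13), Cyp2c55 (-2.47), Cyp2e1 (1.05) and Cyp1a1 (-2.96). The brain counts behind all 6 were low: Cyp1a2 had 4, 10 and 4 counts in WT mice B, D and E and 2, 2 and 2 counts in KO mice A, C and F. Summed over the WT and over the KO brain libraries, Cyp3a25 had 9 and 1 counts, Cyp2a12 4 and 0, Cyp2c55 1 and 6, Cyp2e1 47 and 23 and Cyp1a1 0 and 4. These differences rest on those few brain reads.

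As a whole the members took 1.13%, 1.20% and 1.31% of all counts in WT liver B, D and E and 1.33%, 1.40% and 1.30% in KO liver A, C and F, with overlapping groups (exact permutation test, two-sided, p = 0.2). Without the mitochondrial rRNAs the means were 1.43 ± 0.131% and 1.46 ± 0.0659% (SD, n = 3 libraries each). In brain the share was 0.0118 ± 0.00178% in WT and 0.00910 ± 0.000696% in KO (SD, n = 3), with no overlap, and without the mitochondrial rRNAs 0.0135 ± 0.00134% and 0.0121 ± 0.000255%, again with no overlap. The exact permutation test gave p = 0.1 for both, the smallest it can give with 3 against 3 libraries. The subfamilies that made up this share in liver were led by Cyp2c, with 18.1% to 25.0% of member counts, by Cyp3a, with 12.8% to 27.9%, and by Cyp2e, with 13.5% to 23.0%, whereas in brain Cyp2j held 38.1% to 44.7% and Cyp4f 15.4% to 17.7%.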

How the data were processed

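RNA was sequenced from liver and brain of 6 mice as stranded total RNA libraries with single-end reads of 100 bases, 1 per organ and mouse. Per its methods, the study used Trimmomatic for trimming and STAR 2.7.3a for alignment (mm10). The counts deposited by the authors are raw featureCounts values per gene, reverse-stranded and over exons, with 1 column per library. The annotation release is not given in the sources used here. The study names no option for counting multi-mapped reads, so those of near copies may be lost. Gene symbols, types and coding sequences were taken from GENCODE M21, matched by gene ID for 55227 of 55487 genes. Coding sequence stood in for protein in all comparisons of members.

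Genotypes were compared within each tissue with edgeR 4.0.16 in R 4.3.3 (quasi-likelihood F test, TMM, filterByExpr, Benjamini-Hochberg over all genes tested, call at an adjusted p under 0.1). WT liver against WT brain and the difference of genotype effects came from 1 fit over all 12 libraries. CPM and RPKM were computed here from the deposited counts, with TMM-scaled library sizes. Intervals are 2 SE on either side. Shares of counts were compared with the two-sided exact permutation test. DESeq2 1.42.0, RLE factors, no filter on low counts, mitochondrial rRNA left out, a covariate for libraries with Y-linked counts, mice E and F left out, each mouse left out and a mouse block were the alternatives. The scripts were tested on simulated data. Library totals of 14403309 to 21623180 counts put the floor at 3 counts, and floors cover counting error only. Promoters are the 250 bases before RefSeq starts (GRCm38.p6).

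Same-lettered liver and brain libraries are paired, since the labels give them to 1 animal; their deviations from the group means correlated between -0.0670 and 0.118 over 12574 genes. Named genes were the 12 members highest in WT liver and the 8 in WT brain by RPKM, the 6 of smallest p per comparison and those called (at most 10 a direction), the subsets with a known sex pattern or receptor, and the closest pairs. Cyp2c23, Cyp2c38 and others outside this rule were named after their values were seen. The members and lists were chosen with earlier results of these data known. Nothing in the labels says whether mice shared a litter or a collection day.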

Additional observations from a re-analysis of the deposited data

How the results depend on the processing

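No member was called between the genotypes in liver with edgeR, and this held with RLE size factors, without the mitochondrial rRNAs, with all 12 libraries in 1 fit and with any single mouse left out (0 to 0 members, with 0 to 87 of all genes). DESeq2 called 1 member (2.04%, against 1.1% of all genes) and edgeR without mice E and F called 1 (2%, against 0.208%), Cyp4a32 in both. Without a filter on low counts 2 of 71 members were called (Cyp4a32 and Cyp1a2), 2.82% against 1.63% of all genes, and with the covariate for Y-linked counts 2 of 50 (Cyp4a32 and Cyp4a10), 4% against 0.583%. In brain the count was 0 in each setting except without the filter, where 1 of 57 was called (Cyp2d22), 1.75% against 3.15% of all genes. Leaving the mitochondrial rRNAs out of the library totals moved the members' share of counts to 1.43% in WT liver, 1.46% in KO liver and 0.0121% in KO brain. The difference of the genotype effects between tissues had 0 members called in every setting.

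Values close to 0 or carried by mice E and F changed sign with the mouse left out. With a single mouse left out, the liver log2 fold changes ran from -0.059 to 0.97 for Cyp1b1, -2.46 to 2.57 for Cyp2b10, -8.82 to 5.23 for Cyp2b9, -0.10 to 0.20 for Cyp2c29, -5.95 to 4.98 for Cyp2c40, -7.73 to 6.44 for Cyp2c69, -0.48 to 0.30 for Cyp3a11, -0.11 to 0.020 for Cyp3a25, -1.69 to 0.18 for Cyp4a12a and -0.89 to 0.79 for Cyp4a12b, and the brain ones from -0.27 to 0.0085 for Cyp2j9 and -0.00099 to 0.36 for Cyp4x1. Cyp2b10 also had -0.63 in liver without mice E and F. The cause was not tested. Liver and brain libraries with the same letter come from 1 animal, so a replicate block by mouse was fitted for comparisons across tissues: it called 51 of 53 members between WT liver and WT brain, against 50 without it, and 0 members in the difference between tissues. The study speaks of pairs of KO and control mice, but which KO mouse belongs to which control is not stated, and no block between the genotypes was fitted. Low counts limit Cyp1a1, Cyp1b1 and most members in brain, and the liver genes carried by mice E and F rest on 1 library per genotype.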
